A study of Mus musculus with 6 samples.

Results

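Mitotic kinesins are motor proteins that use ATP to move along microtubules or to take their ends apart while a cell divides. The 10 genes described here, Kif11, Kif15, Kif18a, Kif20a, Kif20b, Kif22, Kif23, Kif2c, Kif4 and Kifc1, were chosen by symbol as kinesins of the spindle and midzone, and all 10 were among the 17463 genes measured. The data were bulk RNA-seq of fetal liver erythroblasts from C57BL/6J mice. Cells without the erythroid surface marker TER119, which is gained as the cells mature, were kept for 30 h in a medium containing erythropoietin (Epo). In 3 samples the medium held 40 µM cholesterol, and in 3 control samples it did not. The labels call the controls untreated and the study's figure legend calls them vehicle-treated, and by the study's methods the TER119+ cells were sorted before RNA extraction. The comparison asks how excess cholesterol bears on the transcripts of a cell population that is still dividing but approaches its exit from the cell cycle.

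Terminal erythroblasts pass through a few last divisions while hemoglobin builds up, then leave the cell cycle and expel the nucleus. In each division the kinesins act in turn: some build a spindle with separate poles, some move chromosomes to its middle, and others gather the antiparallel microtubules of the midzone, where the cell is cut apart. Their genes are transcribed mostly in G2 and mitosis. Many such genes carry a CHR (cell cycle genes homology region) close to the transcription start, with the core letters TTTGAA, to which MuvB complexes bind, and CCAAT boxes, to which NF-Y binds.

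The promoter stretches are shown first because 1 short motif recurs in them near the start. The windows came from RefSeq, build GRCm38.p6, and run from 250 bases before to 50 bases after the annotated start. They were matched by symbol for 9 of the 10 genes, all except Kif20a. Searched on both strands, TTTGAA lay in 8 of the 9 windows (88.9%), against 12.3% of the 11484 windows of genes tested for expression and 17.9% of all 32851 windows. In 7 of the 9 (77.8%) a copy began between 100 bases before the start and the window's end, against 4.76% of the windows of genes tested. The 7 stretches around those copies are printed on the gene's own strand, with TTTGAA or its reverse complement TTCAAA, and CCAAT or its reverse complement ATTGG, in capitals.
Kif11: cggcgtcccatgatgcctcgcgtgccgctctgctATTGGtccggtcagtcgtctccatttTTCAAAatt
Kif15: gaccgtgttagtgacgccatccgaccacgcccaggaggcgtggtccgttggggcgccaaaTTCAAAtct
Kif20b: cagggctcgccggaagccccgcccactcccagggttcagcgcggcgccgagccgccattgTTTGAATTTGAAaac
Kif22: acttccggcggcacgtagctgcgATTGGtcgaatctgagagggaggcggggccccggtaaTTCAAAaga
Kif23: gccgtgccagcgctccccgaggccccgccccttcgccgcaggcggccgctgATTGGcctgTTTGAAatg
Kif4: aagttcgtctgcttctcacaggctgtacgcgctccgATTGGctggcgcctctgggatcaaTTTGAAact
Kifc1: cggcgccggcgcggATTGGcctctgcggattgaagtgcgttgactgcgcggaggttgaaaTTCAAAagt

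On the plus strand lie the stretches of Kif11 (chr19:37376303-37376371), Kif15 (chr9:122951002-122951070), Kif20b (chr19:34922305-34922379) and Kif4 (chrX:100626024-100626092). On the minus strand lie those of Kif22 (chr7:127042429-127042497), Kif23 (chr9:61946789-61946857) and Kifc1 (chr17:33890624-33890692). The copy nearest to the start began at base −19 in Kif11 and Kif15, at −17 in Kif22, at 2 in Kifc1, at 3 in Kif23, at 8 in Kif20b and at 20 in Kif4, counted from the annotated start, which is base 1. Kif20b held 2 copies in direct succession. In Kif2c, the copy nearest to the start began at −103, and Kif18a had none. The start itself is uncertain for Kif4, where the nearest GENCODE M21 start lies at −328 bases relative to it, for Kif22 (−51 bases) and Kif15 (−35 bases), whose copies would then lie after the start, for Kif23 (25 bases), whose copy would then lie before it, for Kif11 (21 bases), and for Kif2c, which has a second annotated start outside the window.

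CCAAT lay in 5 of the 9 windows (55.6%), all 5 of which also held TTTGAA, against 38.5% of the windows of genes tested with CCAAT and 5.03% with both. TTTGGCGC, a letter run bound by E2F factors, lay in Kif15 and Kif18a (22.2%, against 0.984%), and TTTCCCGC in none of the 9 (against 2.09%). In Kif15 the E2F letters directly adjoin TTCAAA without overlapping it. These matches are letters only, and no binding was measured here.

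**Figure D1:**
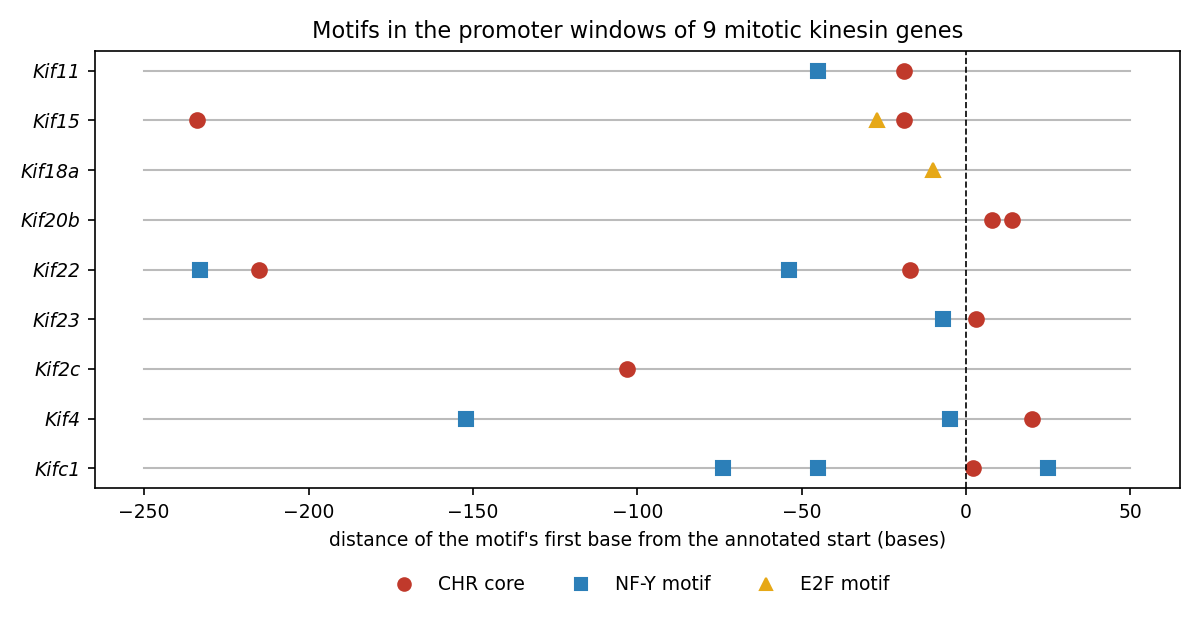
Each line is the RefSeq promoter window of 1 mitotic kinesin gene, with the distance of each motif's first base from the annotated start in bases on the x axis. Circles mark the CHR core, squares the NF-Y motif and triangles the E2F motifs. In 7 of the 9 windows a CHR core sits between −19 and 20, and in Kif2c it sits at −103.

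The libraries were of like size, with 19826797 to 20061702 estimated reads each, so that 3 reads correspond to about 0.15 CPM, the count scaled to the size of the library. The mitotic kinesins took 0.189% to 0.209% of all reads. Adult globin transcripts, the most abundant messages of maturing erythroid cells, took 12.5% to 17.9% of all reads. The 7 erythroid marker genes given here, among them Alas2 and the globin genes Hba-a1 and Hbb-bt, were all detected, and summed to 84372, 78699 and 101680 CPM in controls 1, 2 and 3, and to 67951, 76532 and 96306 CPM in the same-numbered cholesterol samples. Granulocyte markers (9 of 9 detected) summed to 70.4, 253 and 674 CPM in controls 1, 2 and 3, and to 40.5, 110 and 281 CPM in the same-numbered cholesterol samples. Macrophage markers (8 of 8 detected) summed to 17.9 to 128 CPM in control and 13.8 to 59.6 CPM with cholesterol. Of these 8, 7 had a log2 fold change below 0, against 47.9% of all genes tested, and 1 had one above 0. Mast cell and basophil markers summed to 1.77 to 19.1 CPM in control and 0.542 to 3.07 CPM with cholesterol. Megakaryocyte markers summed to 61.0 to 75.2 and 58.2 to 65.4 CPM, and hepatoblast markers to 91.6 to 261 and 63.2 to 222 CPM. The samples numbered 3 held the most granulocyte and macrophage marker RNA in each group. Fewer cells of a type and less RNA per cell cannot be told apart in such bulk samples.

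Per transcript length, the genes spanned a wide range of levels. Values are the deposited normalized values, which have the size of FPKM (reads scaled by transcript length and library size). Kifc1, a motor that walks to the minus end and focuses spindle poles, was at 116 ± 6.66 FPKM in control (SD, n = 3), and Kif22, a chromokinesin that pushes chromosome arms away from the poles, at 113 ± 5.76 FPKM. These were the highest 2 and their control values overlapped. Kif11, the motor that pushes the poles apart, followed at 92.2 ± 6.23 FPKM, and Kif20a, which carries the chromosomal passenger complex to the midzone, at 79.3 ± 2.02 FPKM.

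In the middle of the order stood Kif23 at 50.6 ± 1.78 FPKM, Kif4 at 46.1 ± 2.31, Kif2c at 40.6 ± 0.286 and Kif15 at 33.9 ± 2.68 (control, SD, n = 3). Each of these lay apart from its neighbours in all 3 control samples. Kif18a at 19.4 ± 1.03 FPKM and Kif20b at 18.6 ± 1.07 FPKM were the lowest and overlapped each other. The first 8 places were the same with cholesterol, where Kif20b (18.0 ± 1.03) and Kif18a (17.9 ± 0.567) exchanged places with overlapping values and Kif2c and Kif15 overlapped as well. By their mean over all samples, the 10 genes lay between the 68.7th and the 94.3rd percentile of the 11277 genes tested.

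**Figure D2:**
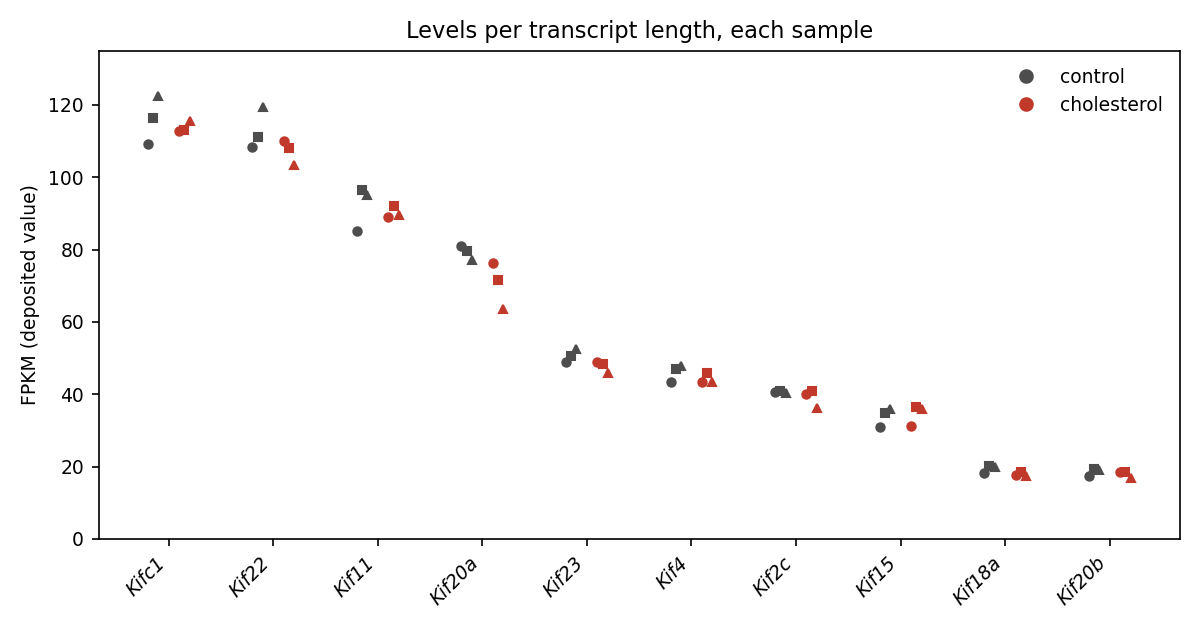
The y axis gives the deposited FPKM of each mitotic kinesin in each sample, from 0, with genes ordered by their control mean. Grey points are control and red points cholesterol samples, with circles, squares and triangles for sample numbers 1, 2 and 3. Kifc1 and Kif22 lie near 110 and Kif18a and Kif20b near 18, and the order is nearly the same in both groups.

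With cholesterol, 9 of the 10 genes had a lower mean than in control, by small amounts: the fitted changes ran from −13.0% for Kif20a to 0.828% for Kif15. Of all genes tested, 47.9% had a log2 fold change below 0. In the median, the 10 genes had a log2 fold change of −0.08 and all genes tested one of 0.01. In the model with treatment alone (edgeR's quasi-likelihood test, Benjamini-Hochberg adjustment over all genes), 0 of the 10 genes passed an adjusted p of 0.05, and so did 0.00887% of all genes, or 1 gene. At an unadjusted p under 0.05, 1 member was lower (Kif20a) and 0 higher, against 1.92% of all genes lower and 2.63% in either direction. DESeq2's Wald test also called 0 members, and 0.228% of all genes lower. With the sample number as a block, which compares same-numbered samples with each other, 1 of the 10 genes was called lower (Kif20a) and 0 higher, against 5.20% of all genes called lower and 1.65% called higher. At an unadjusted p under 0.05 with the block, 4 of the 10 were lower, against 11.6% of all genes.

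The 3 cholesterol samples lay below all 3 control samples for 4 of the 10 genes, Kif18a, Kif20a, Kif22 and Kif23, against 4.28% of all genes tested, and above them for 0 (against 3.72%). Within same-numbered pairs, 5 genes (these 4 and Kifc1) were lower in 3 of 3 pairs, against 20.1% of all genes, and 0 were higher in 3 of 3 (against 19.9%). Averaged over the 10 genes, log2 CPM stood at 7.40, 7.45 and 7.55 in controls 1, 2 and 3, and at 7.37, 7.40 and 7.37 in the cholesterol samples of the same numbers. The highest cholesterol value thus lay just below the lowest control value. The control samples spread more (SD 0.08) than the cholesterol samples (SD 0.02), and the difference of the means, −0.09, was close to the spread of the control samples. The difference was −0.03, −0.06 and −0.18 in pairs 1 to 3, so that pair 3 held most of it. Without control sample 3, the median log2 fold change of the 10 genes was −0.03, and with the block and without both samples numbered 3 it was −0.04. In pairs 1 and 2 alone, 5 of the 10 genes were lower in both, against 29.4% of all genes. Of the markers of the erythroid cells themselves, all 7 had a negative log2 fold change (against 47.9% of all genes), with a median of −0.08. Of the 7, 6 were lower in 3 of 3 pairs (against 20.1% of all genes), while the groups overlapped for each. With treatment alone 0 of the 7 passed, and with the block 1 was called lower, against 5.20% of all genes. It was Alas2, the enzyme that starts heme synthesis in erythroid cells (log2 fold change −0.14, adjusted p = 0.0382 in edgeR with the block). Of the granulocyte markers, 9 of 9 were called lower with the block, against 5.20% of all genes. Their summed CPM differed most in pair 3, where both samples held the most of this RNA. On the log2 scale, pair 3 was the lowest for some of these markers and not for others, whereas it was the lowest for all 10 kinesins. The part of either marker list in the kinesin result was not tested.

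**Figure D3:**
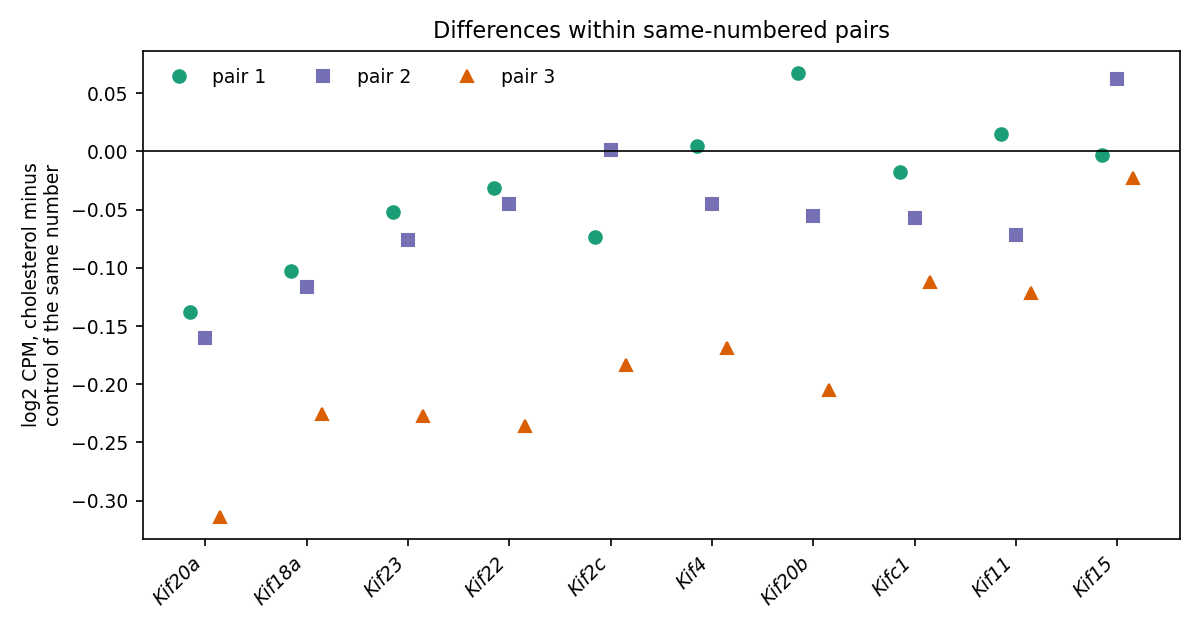
For each mitotic kinesin, the y axis gives the difference in log2 CPM between the cholesterol and the control sample of the same number, with circles, squares and triangles for pairs 1, 2 and 3 and genes ordered by their mean difference. Pair 3 is the lowest point for all 10 genes, and Kif20a lies at −0.14, −0.16 and −0.31.

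Of the motors of the midzone and of cytokinesis, Kif20a, needed to move Aurora B to the midzone, had 292, 278 and 284 CPM in controls 1, 2 and 3, and 265, 249 and 229 CPM with cholesterol in the same order. The groups did not overlap, and cholesterol sample 3 was the lowest. Its log2 fold change was −0.20 (standard error, SE, 0.07, adjusted p = 1 in edgeR) with treatment alone and −0.20 (SE 0.04, adjusted p = 0.00791) with the block. With the block, Kif20a was also called without pairs 1, 2 and 3 in turn. The adjusted p in edgeR was 0.0284, 0.0479 and 0.0255, and the log2 fold change −0.23, −0.23 and −0.15. With so few samples, these fits take much of their estimate of spread from other genes. No fit without the block called Kif20a.

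Kif20a (chr18:34624613-34633277, plus strand, in GENCODE M21 on GRCm38) overlaps Cdc23 on the other strand by 2327 bases. Of the 50-base words of its longest coding transcript, 31.2% also occur in Cdc23 transcripts. The protocol does not say whether the library kept the strand, and without strand such reads cannot be told apart. Cdc23, a subunit of the anaphase-promoting complex, was at 112, 111 and 111 CPM in control and 106, 115 and 112 CPM with cholesterol, with a log2 fold change of −0.01 (SE 0.06, adjusted p = 1 in edgeR).

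Kif23, the motor of the centralspindlin complex that bundles midzone microtubules, had 171, 172 and 186 CPM in control and 165, 163 and 159 CPM with cholesterol. All control values lay above all cholesterol values, though the log2 fold change of −0.12 (SE 0.06) did not pass the test, with an adjusted p of 1, and of 0.141 with the block. Without control sample 3 the log2 fold change of Kif23 was −0.08, and with the block and without both samples numbered 3 it was −0.07. Kif4, a chromokinesin that also limits the length of midzone microtubules, had 173, 186 and 201 CPM in control and 173, 181 and 179 CPM with cholesterol. Its groups overlapped, and the samples numbered 1 were level. Kif4 overlaps Pdzd11 on the other strand by 832 bases, and 16.2% of its 50-base words also occur in other genes, mostly in Pdzd11, which had a log2 fold change of −0.04 (SE 0.06). Kif20b, a motor of late cytokinesis, had 86.6, 94.0 and 98.3 CPM in control and 90.7, 90.4 and 85.3 CPM with cholesterol, higher in pair 1 and lower in pairs 2 and 3.

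Among the motors at chromosomes and kinetochores, Kif18a, which dampens chromosome movements at the plus ends of kinetochore microtubules, had 63.5, 67.7 and 71.4 CPM in control and 59.2, 62.4 and 61.1 CPM with cholesterol. The groups did not overlap, and the gene was lower in each pair, with a log2 fold change of −0.15 (SE 0.07, adjusted p = 1, and 0.0917 with the block, in edgeR). Kif22 had 231, 229 and 260 CPM in control and 226, 222 and 221 CPM with cholesterol. Control sample 3 stood above the others, and the log2 fold change was −0.11 (SE 0.07, adjusted p = 1, and 0.217 with the block). Without control sample 3 the log2 fold change of Kif22 was −0.04, and with the block and without both samples numbered 3 it was also −0.04. Kif2c, which takes microtubule ends apart to correct faulty attachments, had 119, 116 and 121 CPM in control and 113, 116 and 106 CPM with cholesterol, and its groups overlapped.

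Among the motors that shape the spindle poles, Kif11 had 426, 468 and 487 CPM in control and 430, 445 and 448 CPM with cholesterol, and the values of the groups overlapped. Kif15, which can help Kif11 to keep the poles apart, had 137, 149 and 165 CPM in control and 137, 156 and 162 CPM with cholesterol. It was the single member with a positive log2 fold change, 0.01 (SE 0.10), and its groups overlapped over nearly their whole range. Its sign turned in 3 of the 6 fits without 1 sample. Kifc1 had 251, 259 and 290 CPM in control and 248, 249 and 269 CPM with cholesterol, lower in each pair by 0.02, 0.06 and 0.11 on the log2 scale. Without control sample 3 its log2 fold change turned to 0.000958. Of the 50-base words of Kifc1, 47.6% also occur in other genes, mostly in its near-identical copy Kifc5b, so the division of reads between both is uncertain. With their counts summed, which was tried once these data had been looked at, the log2 fold change was −0.07, against −0.06 for Kifc1 alone.

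**Figure D4:**
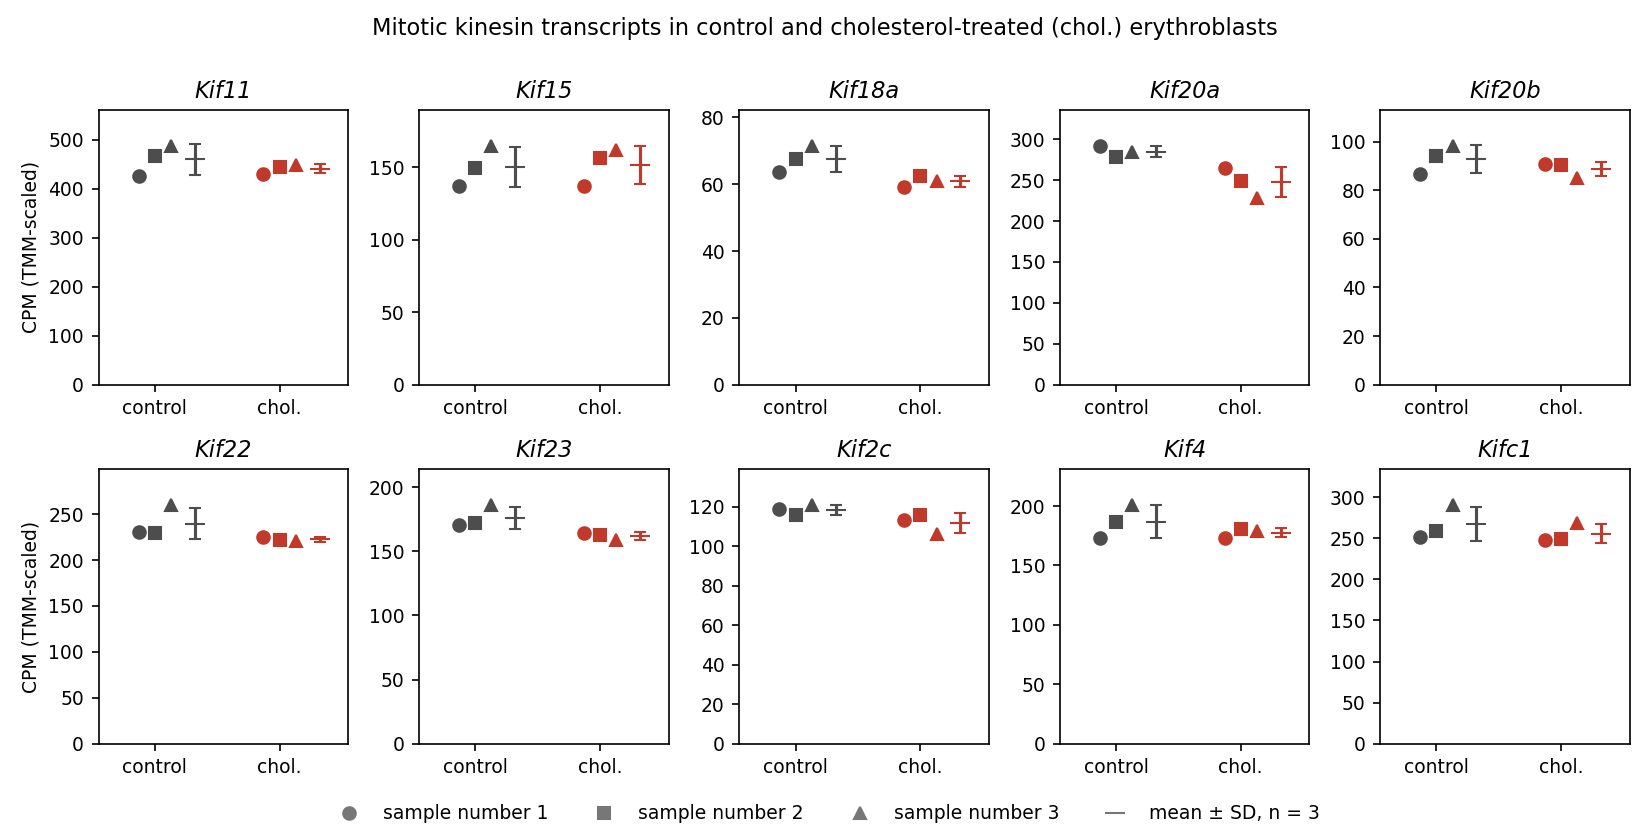
Each panel shows 1 mitotic kinesin, with TMM-scaled CPM on a y axis from 0 and 1 point per sample, shaped by sample number, beside the mean and SD of 3 samples. Kif18a, Kif20a, Kif22 and Kif23 have all cholesterol points (red) below all control points (grey), and the other 6 overlap.

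The genes also differed in how they varied over the 6 samples. The correlation of each gene's log2 CPM with the mean of the other 9, given as a description over 6 samples that share libraries and scaling, was highest for Kif18a (r = 0.948), Kif23 (0.926), Kif4 (0.923) and Kif22 (0.918). It was lowest for Kif15 (0.347) and Kif20a (0.399). Kif20a was highest in control sample 1, whereas Kif11, Kif15, Kif18a, Kif20b, Kif23, Kif4 and Kifc1 had their lowest control value there.

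Of 7234 other genes with a mean of at least 10 CPM, the 5 whose log2 CPM over the 6 samples was most like the mean of the 10 kinesins were Nusap1, a spindle microtubule protein (r = 0.9886), Slc30a7, a zinc transporter of the Golgi (0.9885), Atp13a2, a lysosomal pump (0.987), Abcg2, a heme and drug exporter (0.987), and Cdc25c, the phosphatase that activates CDK1 at mitotic entry (0.984). Nusap1 had 398, 422 and 500 CPM in control and 375, 388 and 389 CPM with cholesterol. Cdc25c had 56.3, 59.6 and 69.9 CPM in control and 52.5, 53.8 and 54.6 CPM with cholesterol. Slc30a7 had 12.6, 13.2 and 14.9 CPM in control and 12.4, 12.4 and 12.2 CPM with cholesterol. In each of these 3 genes control sample 3 was the highest and the groups did not overlap. Atp13a2 had 11.2, 12.9 and 19.5 CPM in control and 10.7, 11.7 and 10.3 CPM with cholesterol. Abcg2 had 461, 469 and 482 CPM in control and 458, 464 and 456 CPM with cholesterol. In both of these the groups overlapped. The 5 genes were picked for their likeness to a mean that was lower in each cholesterol sample than in each control, so their levels are a description and no test is given for that choice.

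Further kinesins with a part in division were looked at in a list of 7 genes, of which Kif2b was not matched in the table. The other 6 were all tested and all had a negative log2 fold change, with a median of −0.07, and 0 passed the adjusted test with treatment alone or with the block. Kif14, which acts with citron kinase in cytokinesis, had 152, 167 and 169 CPM in control and 149, 146 and 145 CPM with cholesterol, without overlap and lower in each pair (log2 fold change −0.15, SE 0.06, adjusted p = 1, and 0.0689 with the block, in edgeR). Kif24, a depolymerase that acts at centrioles, had 59.7, 63.2 and 57.2 CPM in control and 48.0, 46.5 and 57.2 CPM with cholesterol, and the samples numbered 3 were level (log2 fold change −0.25, SE 0.10, adjusted p = 1, and 0.0874 with the block). Cenpe, the kinetochore motor that brings stray chromosomes to the spindle's middle, Kif18b, which shortens astral microtubules, Kif2a, a depolymerase at the poles, and Kifc5b had log2 fold changes of −0.05, −0.05, −0.05 and −0.09, and their groups overlapped. Of the 50-base words of Kif2a, 23.0% also occur in other genes, mostly in Dimt1, which overlaps it on the other strand.

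Proteins that work with these motors were looked at in a list of 25 genes, of which 24 were matched and 23 tested. Of the 23, 20 had a negative log2 fold change, with a median of −0.09, 4 did not overlap between groups, all lower with cholesterol (against 4.28% of all genes), and 14 were lower in 3 of 3 pairs (against 20.1%) and 1 higher (against 19.9%). With treatment alone 0 passed, at an adjusted or unadjusted p of 0.05, and with the block 1 of the 23 was called lower, Nusap1 (log2 fold change −0.19, adjusted p = 0.0373 in edgeR), against 5.20% of all genes. Ect2, the exchange factor that centralspindlin recruits, had 112, 117 and 127 CPM in control and 107, 105 and 109 CPM with cholesterol (log2 fold change −0.15, SE 0.07, adjusted p = 1, and 0.0664 with the block, in edgeR). Racgap1, the partner of Kif23 in centralspindlin, had a log2 fold change of −0.09 (SE 0.06) without overlap between groups. Prc1, the bundling protein that binds Kif4, had one of −0.11 (SE 0.08), and Tpx2, which binds Kif11 and Kif15, one of −0.10 (SE 0.06). For the kinases Plk1 (−0.07, SE 0.08) and Aurkb (−0.03, SE 0.06) the values of the groups overlapped.

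**Figure D5:**
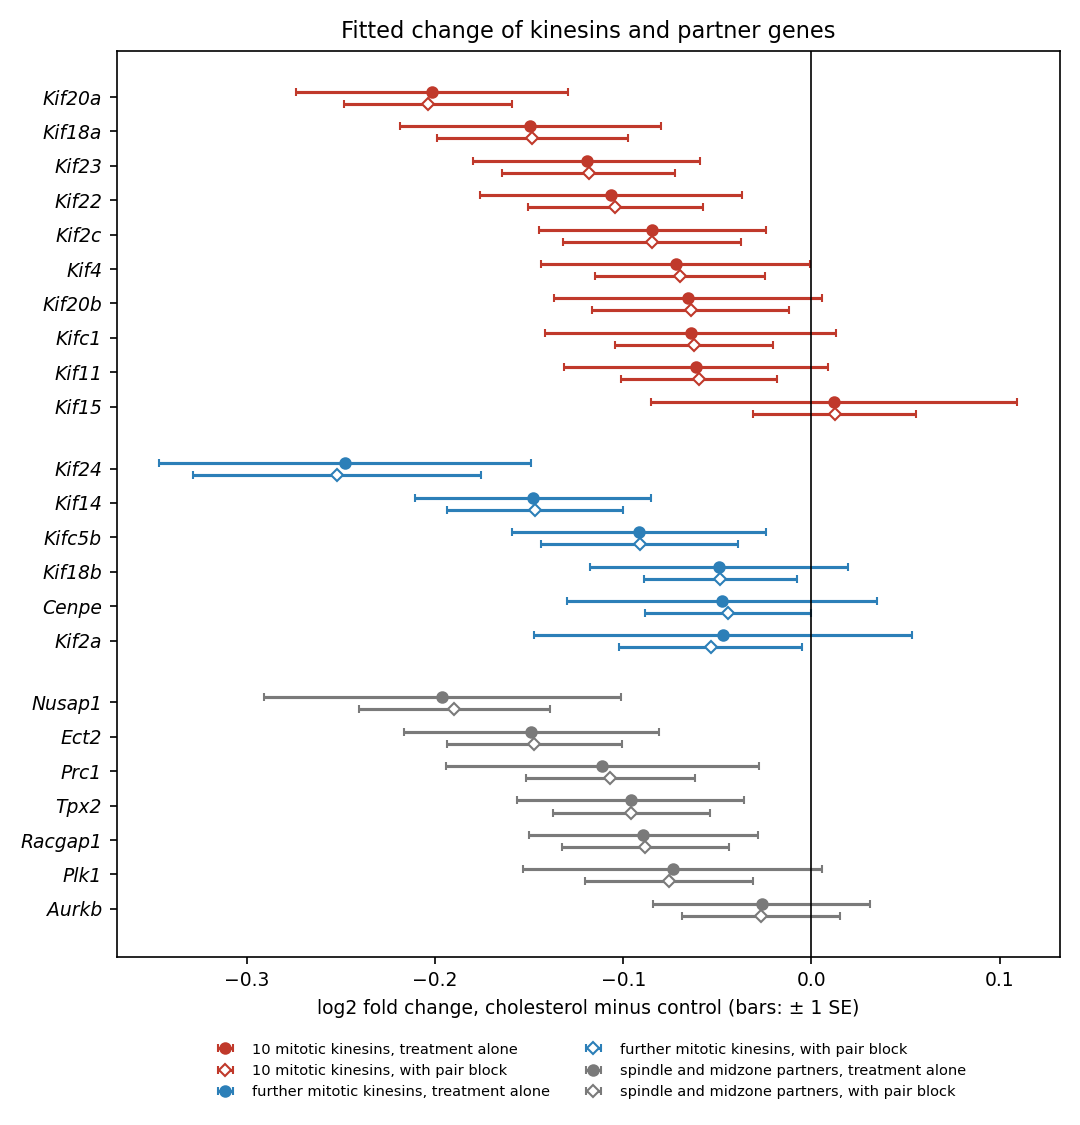
Log2 fold changes (x axis, cholesterol minus control, bars of 1 SE) of the 10 mitotic kinesins (red), 6 further mitotic kinesins (blue) and 7 partner genes (grey), from the edgeR model with treatment alone (filled) and with the sample number as a block (open). All except Kif15 lie left of 0, Kif20a at −0.20 and Kif24 at −0.25, and the block leaves the estimates in place while it shortens the bars.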

How the data were processed

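The authors sequenced polyadenylated RNA with single-end reads of 50 bases and deposited 2 tables of 17463 genes. The authors deposited estimated counts per gene, not normalized, of which 27.9% to 29.5% per sample were not whole. The second table is a normalized table whose unit is not named. The deposited normalized values were taken as FPKM, since count, value and total count gave a length within the range of annotated transcripts for 95.8% of 8282 genes (between 0.8 of the shortest and 1.2 of the longest). The submitters' processing notes name HISAT2 2.0.4, Bowtie2 2.2.5, RSEM 1.2.12, DESeq2 1.4.5 and the build GRCm38.p6, with no role or order, and the annotation is not given in the sources used here.

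Counts were rounded and tested with edgeR 4.0.16 in R 4.3.3 (filterByExpr with at least 10 counts, TMM, robust quasi-likelihood test, treatment alone, Benjamini-Hochberg adjustment over 11277 genes). A call is an adjusted p under 0.05. Standard errors were derived from the F statistic. CPM are TMM-scaled. An exact permutation test of 3 against 3 samples cannot go below a p of 0.1, so none was run. The legend of the figure that includes these data names 3 independent experiments for its panels as a whole, while the labels do not tie samples to litters or cultures. If the samples were not separate cultures, p-values measure technical spread only. No libraries were copies (chi-square per degree of freedom at least 8.65). Replicate numbers come from the sample titles. After group means were subtracted, control and cholesterol samples of numbers 1, 2 and 3 correlated at 0.729, 0.348 and 0.825 over genes, so the numbers were taken as pairs and the fit with the number as a block is given beside the results.

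Alternatives were DESeq2 1.42.0, its size factors, library totals without TMM, other filters, limma 3.58.1 on log2(FPKM + 1) and log2(FPKM + 0.1), each sample or pair left out, and TPM for the levels. The scripts were tested on simulated data with 200 changed genes. The genes and lists were chosen with earlier results of these data known. Named were all members, all further mitotic kinesins, 6 direct partners, any gene of the partner, transport or adaptor lists called in either fit, the 3 transport kinesins or adaptors with the highest level per length, and the 5 genes most like the members. Cdc23, Pdzd11 and Dimt1 were named after their overlap was seen, and Alas2 after its values were seen. Motifs and sequences were read from RefSeq promoters, and 50-base words were compared over all GENCODE M21 transcripts on both strands. Of the erythroid markers, 1 gene is not reported here.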

Additional observations from a re-analysis of the deposited data

How the results depend on the processing

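The median log2 fold change of the 10 kinesins stayed negative in all 20 alternatives, between −0.12 and −0.03, and the number of members called stayed at 0 in each alternative without the block. With the replicate block it was 1 (Kif20a), as it was with the block and Kifc1 and Kifc5b summed (1) and without any 1 pair (1). It changed no other member's call. The number of all genes called was 1 in the test with treatment alone, 28 with DESeq2's Wald test, 772 with the replicate block, 773 with the block and both genes summed, 1 to 8 without 1 sample (8 without control replicate 3, 2 without cholesterol replicate 3) and, with the block, 821, 296 and 726 without replicate numbers 1, 2 and 3. Signs turned for members close to 0. Kif15 was at −0.0463 without control replicate 1, −0.0119 without cholesterol replicate 2, −0.0350 without cholesterol replicate 3 and −0.0131 with the block and without replicate 2, and without 1 sample it ranged from −0.0463 to 0.0822. Kifc1 was at 0.000958 without control replicate 3 and ranged down to −0.102 without 1 sample, and Kif20b at 0.00348 with the block and without replicate 3. Kif15 aside, several log2 fold changes kept their sign and moved by over 1.5 times. Without control replicate 1 they were Kif11 (−0.11), Kif20b (−0.11), Kif4 (−0.12) and Kifc1 (−0.10). Without control replicate 3 they were Kif11 (−0.02), Kif20b (−0.02), Kif22 (−0.04), Kif23 (−0.08) and Kif4 (−0.02). Without cholesterol replicate 3 they were Kif20b (−0.03), Kif2c (−0.05) and Kifc1 (−0.10). With the block they were Kif11 (−0.09) and Kif20b (−0.13) without replicate 1, Kif2c (−0.13) without replicate 2, and Kif11 (−0.03), Kif22 (−0.04), Kif23 (−0.07), Kif2c (−0.04), Kif4 (−0.02) and Kifc1 (−0.04) without replicate 3. For library totals without TMM they were Kif11 (−0.03), Kif20b (−0.03), Kif2c (−0.05), Kif4 (−0.04) and Kifc1 (−0.03). In limma on log2(FPKM + 1), filtered or not, and on log2(FPKM + 0.1), they were Kif11 (−0.03), Kif20b (−0.04), Kif2c (−0.05) and Kifc1 (−0.03). The causes were not tested. With library totals without TMM the median was −0.05 for the 10 kinesins and 0.04 for all genes tested. The order of levels was the same in TPM for all 10 genes. With 3 samples a group and this depth, changes of this size were near the spread between samples, so a gene that did not pass is not shown to be unchanged.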

Other observations

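Of 25 transport and ciliary kinesin genes, 1 was at 0 in every sample and 15 had enough reads to be tested. Their median log2 fold change with cholesterol was −0.01, with 8 lower and 7 higher, and 0 passed with treatment alone. Kif5b, the heavy chain of conventional kinesin, had the highest level per length of them (14.8 FPKM over all samples), with 80.4, 88.4 and 96.8 CPM in control and 86.5, 97.6 and 101 CPM with cholesterol, higher in 3 of 3 pairs (log2 fold change 0.10, standard error 0.10, adjusted p = 1 in edgeR). Kif21b, which pauses microtubule growth, had 10.2, 9.90 and 8.98 CPM in control and 9.27, 6.52 and 5.16 CPM with cholesterol. Its groups overlapped, and it was lower in 3 of 3 pairs. It was the single gene of the list called with the block (log2 fold change −0.49, adjusted p = 0.0269 in edgeR, against 1 with treatment alone), and 5.20% of all genes were called lower with the block.

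Of 6 light chain and adaptor genes, 5 were tested, 4 of them with a positive log2 fold change, and 0 passed in either model. Klc1, a light chain that links kinesin to cargo, was at 73.7 ± 1.81 CPM in control and 76.6 ± 2.92 CPM with cholesterol (SD, n = 3). Kif1bp, a protein that binds and inhibits several kinesin motors, had 24.6, 21.8 and 23.9 CPM in control and 25.6, 24.8 and 24.8 CPM with cholesterol. All its cholesterol values lay above all control values (log2 fold change 0.10, SE 0.08; by edgeR the adjusted p was 1 with treatment alone and 0.453 with the block).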
